A study of Mus musculus with 9 samples.

Results

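Mouse bladders carrying an MB49 tumour and treated with the high doses of alpha1-oleate were set against tumour-free bladder, to see what was still different from healthy tissue after treatment and what had passed it. The comparison uses 2 arrays of treated tumour bladder, at 8.5 mM and at 17 mM, and 1 array of healthy bladder given PBS. These 3 of the 9 arrays of the series were chosen by their labels and all belong to experiment 1. Alpha1-oleate is a complex of a short peptide with oleate. MB49 is a mouse bladder carcinoma line that came from a male animal.

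All mice were C57BL/6J females. In the tumour groups the bladder was coated with poly-L-lysine on day 0 and MB49 cells were then placed in the lumen. Mice of the 8.5 mM and 17 mM groups, like those of the 1.7 mM group, had alpha1-oleate put into the bladder 5 times from day 3 to day 11. Sham-treated tumour mice had PBS, and all tumour bladders were taken at day 12. Healthy bladders had PBS and no tumour cells, and the labels give no sampling day for them. Experiment 2 adds a healthy PBS bladder, a sham-treated tumour bladder and healthy bladders 24 h and 7 d after 17 mM alpha1-oleate. Each array is a whole bladder extract, and the labels do not say how many animals it stands for. P-values therefore measure only the spread between these arrays, part of which may be technical, and precision is limited by how few arrays there are.

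The bladder is lined by the urothelium, whose surface cells carry plaques of uroplakins and whose basal cells carry keratin 5 and the transcription factor p63. Beneath it lie a stroma of fibroblasts and vessels and thick bundles of smooth muscle. A tumour that grows in the lumen adds dividing cells and draws in leukocytes. In extracts of whole tissue fewer cells of a type and less RNA per cell cannot be told apart, which holds for every gene group below.

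Values are deposited log2 signals, and a difference of 1 is a 2-fold change. A fitted difference is limma's estimate for the 2 dose arrays as a group against healthy bladder, with the experiment number as a block, and its error is a standard error (SE). A gene was called when its adjusted p was under 0.05 and both dose arrays lay on the same side of the healthy array of experiment 1. The fit used 7 arrays and left 2 residual degrees of freedom. Because the 2 doses form a group, any difference between them is part of the spread behind each SE and p-value. Median signal per array was 4.42 to 4.45 in experiment 1 and 4.20 to 4.24 in experiment 2. The healthy arrays carried high signal of the bladder's own markers, such as Upk2 (11.22 and 10.86) and Myh11 (11.82 and 11.54). The array labelled healthy, 17 mM, 24 h stood apart from the other healthy arrays, with signals of tumour bladder such as Top2a (7.59 against 3.66 in the healthy PBS array of its experiment) and S100a8 (7.07 against 2.97). Over the 11969 genes tested its difference from the healthy array of experiment 2 had a Pearson correlation of 0.91 with the mean difference of the dose arrays from their own healthy array, and the arrays on the 2 sides are not shared. For the 7 d array this correlation was 0.20. Whether its label is wrong or healthy tissue answers alpha1-oleate in this way was not tested, and neither array entered the fit.

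At the end of treatment the bladders still differed from healthy bladder in many genes. Of 11969 genes, 10624 lay on the same side of healthy at both doses, 1113 lay on opposite sides and 232 equalled the healthy array at a dose. Both differences subtract the same healthy array, so part of this agreement in side is built in and it is not read as a result. No gene was at least 2-fold higher at one dose and at least 2-fold lower at the other. Between the 2 dose arrays themselves the median size of the difference was 0.11 on the log2 scale, with an SD over genes of 0.22. By limma 2185 genes were called higher than healthy (18.3%) and 1925 lower (16.1%), and the median fitted difference over all genes was -0.01. Of the 2185, 196 had a signal below 4.16, the level of the filter on mean signal, in both healthy PBS arrays. They passed that filter through the arrays in which they are high, and their differences may understate the true ones. Of the 1925, 48 were below this level in both dose arrays. With at least a 2-fold difference at both doses, 896 genes were called higher (7.49%) and 270 lower (2.26%).

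**Figure D1:**
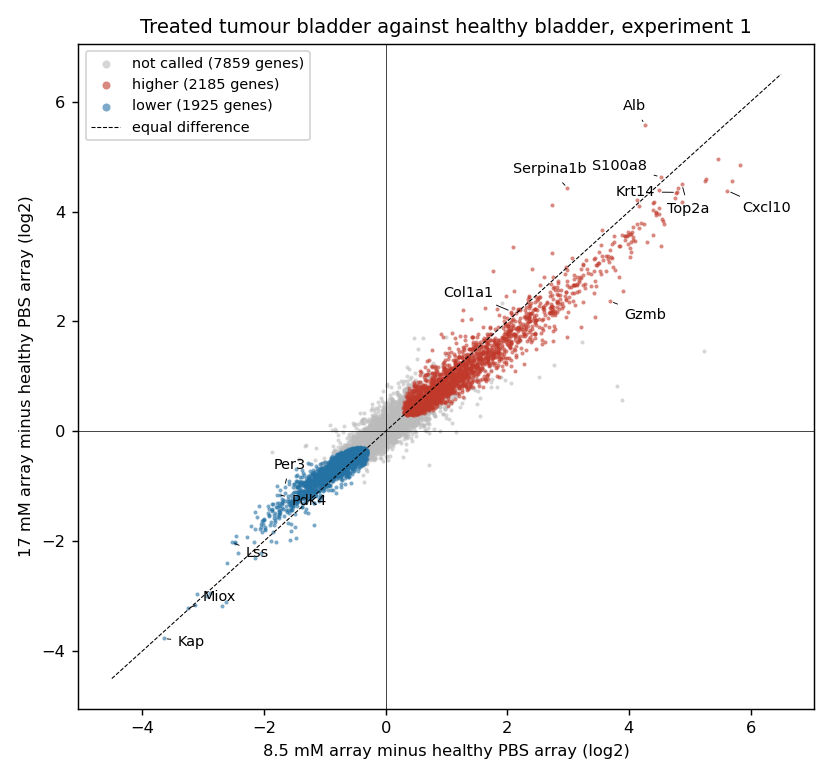
Each point is a gene, placed by its log2 difference from the healthy PBS array at 8.5 mM (horizontal axis) and at 17 mM (vertical axis); red and blue points were called higher and lower, and the dashed line marks equal differences. The points lie along the line, with 2185 genes higher and 1925 lower; Alb and Serpina1b stand above it, with larger differences at 17 mM.

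These counts rest on few arrays. Without the healthy array of experiment 1 limma called 0 genes (2877 at an unadjusted p under 0.05, smallest adjusted p 0.175). Without the healthy array of experiment 2, or without either sham array, 521 higher and 155 lower were called. These are the counts of experiment 1 alone, since experiment 2 then has no part in the contrast. Leaving out the 8.5 mM array left 312 and 44, and leaving out the 17 mM array left 879 and 472. Of the 134 called genes that the naming rule picks, not all of them described below, 76 were no longer called from experiment 1 alone, 80 without the 8.5 mM array, 41 without the 17 mM array and all 134 without the healthy array of experiment 1. Without the block 981 were called higher and 98 lower (90.9% of calls higher, against 53.2%), and the median over all genes moved to 0.23.

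The direction of the untreated tumour was taken from experiment 2, whose sham and healthy arrays are in neither dose array's difference. Both arrays do enter the fit that makes the calls, so calls and direction are not independent. Among the called genes 2-fold from healthy at both doses, 913 (7.63% of genes tested) were displaced the same way as that tumour. The opposite way held for 44 genes (0.368%), all of them higher than healthy at both doses and lower in the tumour. Of 1686 genes at least 2-fold higher in that tumour, 812 lay within 2-fold of healthy at both doses. Of 1809 genes at least 2-fold lower in it, 1240 did. The same counts were not made for the sham array of experiment 1 or over all genes. Neither number is therefore read as genes brought back by treatment. Over the 896 higher genes the median difference from healthy was 2.49 in the sham array, 2.29 at 1.7 mM, 1.85 at 8.5 mM and 1.60 at 17 mM. Over the 270 lower genes these medians were -2.58, -2.33, -1.46 and -1.24. The 17 mM array was closer to healthy than the 8.5 mM array for 738 of the 896 and 231 of the 270. This rests on 1 array per dose and no test, and the share over all genes was not counted. Against the sham-treated tumour itself the same fit called 2627 genes higher (21.9%) and 2513 lower (21%).

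**Figure D2:**
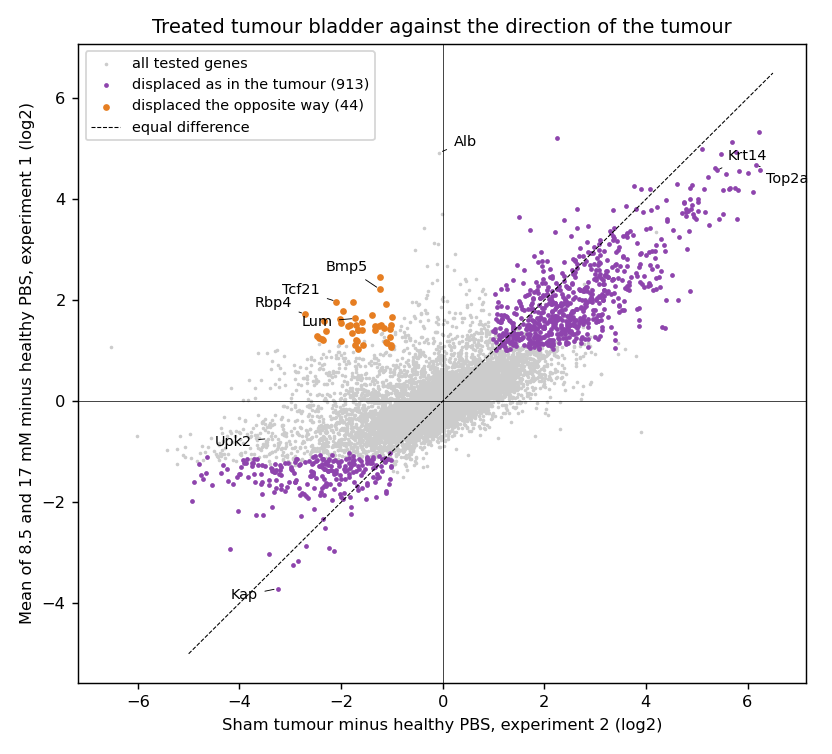
Each point is a gene, with the sham tumour minus healthy difference of experiment 2 on the horizontal axis and the mean difference of the 8.5 and 17 mM arrays from healthy on the vertical axis (both log2). Purple marks the 913 called genes displaced as in the tumour and orange the 44 displaced the opposite way, among them Bmp5, Tcf21 and Lum.

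Genes of cell division stayed far above healthy bladder. Top2a, the topoisomerase that untangles replicated chromosomes, had a signal of 4.43 in healthy bladder, 9.30 at 8.5 mM and 8.93 at 17 mM, and 10.59 in the sham-treated tumour. Both treated arrays thus lay far above healthy and below the sham array. Its fitted difference from healthy was 4.69 (SE 0.16, limma adjusted p = 0.00139). Mki67, a marker of cycling cells, read 3.72 in healthy bladder and 8.49 and 8.05 in the treated bladders (4.53, SE 0.18). Birc5, the mitotic and anti-apoptotic protein survivin, read 3.69 against 8.95 and 8.29 (4.79, SE 0.28). Cep55, which acts in the final cut between daughter cells, read 3.66 against 8.41 and 7.91 (4.40, SE 0.22). All 23 mitosis genes tested were higher than healthy at both doses, with a median fitted difference of 2.89 against -0.01 over all genes, and 21 of the 23 were lower than in the sham-treated tumour. In 12 of the 23, Mki67, Birc5 and Cep55 among them, both healthy PBS arrays were below 4.16, so the size of their difference may be understated. The other 11 were called as well. In each of the 23 the 17 mM array was nearer to healthy than the 8.5 mM array.

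Genes that copy DNA were displaced less. Of 23 tested, 21 were higher and none lower, with a median of 1.21. Rrm2, the small subunit of ribonucleotide reductase, read 4.50 in healthy bladder and 8.64 and 8.27 at the 2 doses, a fitted difference of 3.88 (SE 0.18). Tk1, thymidine kinase, read 4.15 against 7.82 and 7.23 (3.33, SE 0.23), and was below 4.16 in both healthy PBS arrays. Fen1, a flap endonuclease of the lagging strand, read 4.62 against 7.54 and 6.91 (2.36, SE 0.34), and Mcm5, a subunit of the replicative helicase, 5.23 against 7.69 and 7.01 (2.12, SE 0.26). These 4 lay above healthy and below the sham array at both doses.

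Many promoters of mitotic genes are known to carry CCAAT boxes, bound by NF-Y, and a cell cycle homology region (CHR). The Top2a window is shown because the mitosis genes moved together and its window holds both motifs. It is the 250 bases before the RefSeq start on GRCm38.p6, chr11:99024190-99024439, minus strand, written 5′ to 3′. The CCAAT box and the CHR (letters TTTGAA), on either strand, are in capitals.
Top2a: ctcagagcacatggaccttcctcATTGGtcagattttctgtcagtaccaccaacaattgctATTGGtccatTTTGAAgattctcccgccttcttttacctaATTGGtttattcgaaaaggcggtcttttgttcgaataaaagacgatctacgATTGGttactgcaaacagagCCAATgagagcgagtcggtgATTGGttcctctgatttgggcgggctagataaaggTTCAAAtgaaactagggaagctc
On either strand CCAAT was found in 15 of the 19 mitosis genes with a promoter in the table (78.9%) and in 33.8% of all 32851 promoters. TTTGAA was found in 6 of 19 (31.6%) against 16.0%. Here and for the later windows a listed gene was counted by its first promoter, while all promoters include every entry of a gene. The 2 motifs do not overlap in the Top2a window. A match is a description of the letters and not a bound site.

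Chemokines and interferon-inducible genes were also far above healthy. Cxcl9, a chemokine that draws T cells, had a signal of 4.27 in healthy bladder, 9.97 at 8.5 mM and 8.82 at 17 mM. Its fitted difference was 4.99 (SE 0.43, limma adjusted p = 0.003). Cxcl10, a chemokine of the same receptor, read 2.91 against 8.53 and 7.29, a difference of 4.72 (SE 0.52, adjusted p = 0.00486). In both genes the 17 mM array lay over 1 log2 unit below the 8.5 mM array and still above healthy. Oasl2, of the antiviral oligoadenylate synthetase-like family, read 5.58 against 7.89 and 7.06 (1.86, SE 0.31), and Ifit1, an antiviral RNA-binding protein, 4.83 against 7.45 and 6.46 (2.05, SE 0.37). Of 17 interferon and class I genes tested, 12 were higher and none lower (median 1.39). In 2 of the 12, Cxcl10 among them, both healthy PBS arrays were below 4.16. All 17 were nearer to healthy at 17 mM than at 8.5 mM.

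The Cxcl10 window is shown for its interferon-stimulated response element (ISRE), a pair of GAAA blocks parted by any 2 bases, searched on both strands. It spans chr5:92348890-92349139 on GRCm38.p6, minus strand, with the match in capitals.
Cxcl10: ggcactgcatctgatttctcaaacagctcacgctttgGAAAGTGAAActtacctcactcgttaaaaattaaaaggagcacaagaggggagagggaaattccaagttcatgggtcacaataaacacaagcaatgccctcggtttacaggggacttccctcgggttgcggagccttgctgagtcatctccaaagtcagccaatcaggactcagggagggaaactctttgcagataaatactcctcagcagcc
The match ends 204 bases before the start. This motif was found in 7 of 15 interferon and class I genes with a promoter in the table (46.7%) and in 2.98% of all promoters.

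Of 12 inflammatory cytokine genes tested, 7 were higher than healthy and none lower (median 2.02), and 7 were lower than in the sham-treated tumour. In 4 of the 7 higher ones, Cxcl2, Ccl2 and Cxcl1 among them, both healthy PBS arrays were below 4.16. Those 4 passed the filter through the arrays in which they are high, and their differences may be understated. Cxcl2, a neutrophil chemokine, read 3.07 in healthy bladder and 7.47 and 7.10 at the 2 doses, a fitted difference of 4.07 (SE 0.21). Ccl2, a monocyte chemokine, read 3.74 against 8.24 and 7.70 (4.0, SE 0.31). Cxcl1, also a neutrophil chemokine, read 3.45 against 5.95 and 5.85 (2.35, SE 0.14). Its treated arrays lay about midway between healthy and the sham array (8.06). Il1b, the inflammasome-processed cytokine, read 5.02 against 8.56 and 7.88 (2.84, SE 0.44).

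Macrophage transcripts stayed far above healthy. Of 21 macrophage genes tested, 19 were higher than healthy and none lower, with a median of 2.82. Against sham 3 were higher and 4 lower. Fcgr1, the high-affinity IgG receptor, read 4.07 in healthy bladder and 8.14 and 7.56 in treated bladder (3.70, SE 0.24). Arg1, an arginine-degrading enzyme of activated macrophages, read 3.61 against 8.13 and 6.98 (3.88, SE 0.42). Fcgr1 and Arg1 were below 4.16 in both healthy PBS arrays. Fcer1g and Fcgr3, the common signalling chain and a low-affinity IgG receptor, differed by 3.18 (SE 0.19) and 3.20 (SE 0.16). Cd163, the haemoglobin scavenger receptor of resident-type macrophages, had another order, with 5.28 in healthy, 6.14 in sham, 8.03 at 1.7 mM, 7.39 at 8.5 mM and 7.83 at 17 mM. All 3 dose arrays of Cd163 lay above the sham array. Its fitted difference was 2.20 from healthy (SE 0.22, limma adjusted p = 0.00389) and 1.60 from sham (SE 0.22, adjusted p = 0.00476).

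Neutrophil transcripts were split. S100a8, a subunit of calprotectin, read 3.38 in healthy, 10.14 in sham, and 7.90 and 8.01 in treated bladder, and its partner S100a9 read 4.20, 10.54, 8.34 and 8.41. Both thus lay between healthy and tumour. Their fitted differences from healthy were 4.45 (SE 0.16) and 4.04 (SE 0.16), and from sham -2.05 (SE 0.16) and -2.03 (SE 0.16). S100a8 was below 4.16 in both healthy PBS arrays. Il1r2, the interleukin 1 decoy receptor, and Clec4d, a myeloid lectin receptor, were also higher than healthy, by 2.04 (SE 0.25) and 1.66 (SE 0.35). The other 5 of 9 neutrophil genes tested were not called. Lcn2, which encodes the iron-sequestering lipocalin of neutrophils and inflamed epithelium and was picked after its values were seen, read 4.65 in healthy, 8.09 in sham and 8.33 at 1.7 mM, but 3.91 and 4.18 at the high doses. Its treated arrays lay below healthy by a fitted difference of -0.49 that did not pass (adjusted p = 0.0866). None of the 9 was higher than in the sham array and 8 were lower, and Mmp8 and Mpo were below the signal filter.

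Class II genes, and some T and NK cell genes, stayed above healthy as well. All 9 dendritic cell and class II genes tested were higher, with a median of 1.79. H2-DMa, a peptide-exchange factor of class II, read 5.02 in healthy bladder against 7.89 and 7.43 (2.45, SE 0.27), and Cd74, the invariant chain, 9.36 against 11.42 and 11.11 (1.96, SE 0.15). Of 13 T and NK cell genes tested, 6 were higher, none lower, 7 not called, and none differed from the sham array by the test. In 3 of the 6 both healthy PBS arrays were below 4.16, so the size of their difference may be understated. Gzmb, a cytotoxic granule protease, read 4.18 in healthy bladder, 7.87 at 8.5 mM and 6.55 at 17 mM (2.73, SE 0.56, limma adjusted p = 0.0198). Gzma, another granule protease, read 4.47, 7.92 and 6.55 (2.49, SE 0.56). The 17 mM array lay over 1 log2 unit below the 8.5 mM array in both. Klrd1, an NK cell receptor, differed by 2.37 (SE 0.29), and Ptprc, the pan-leukocyte phosphatase CD45, by 3.25 (SE 0.19). The 2 B cell genes tested were not called.

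Mast cell proteases passed both healthy and tumour. Cpa3, mast cell carboxypeptidase, read 4.24 in healthy and 4.74 in sham, and 6.55 and 6.01 in treated bladder. Cma1, a chymase, read 4.04 and 4.20, and 5.63 and 5.45 after treatment. Both treated arrays were above both controls in each gene. The fitted differences from healthy were 1.83 (SE 0.29) and 1.50 (SE 0.11), and from sham 1.75 (SE 0.29) and 1.33 (SE 0.11). Mcpt4, another chymase, and Hpgds, a prostaglandin D synthase, were higher than healthy by 1.13 (SE 0.14) and 0.82 (SE 0.12). Cma1 and Hpgds were below 4.16 in both healthy PBS arrays. The mast cell receptor gene Kit, picked after its values were seen, differed by -0.28 and was not called, and Tpsb2, Fcer1a and Ms4a2 were below the signal filter. The median of the 5 tested was 1.13. When the lowest 50% of signals were left out it was -0.28, which is the value of Kit, the lowest of the list. No change of direction of the list is read from that setting.

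Genes of the normal lining lay between the tumour and healthy bladder, nearer to healthy. All 20 urothelial differentiation genes tested were below healthy at both doses, and 16 were called lower (median -0.87). Against sham 18 of the 20 were higher. Upk2, a uroplakin of the surface plaques, read 11.22 in healthy, 7.80 in sham, 8.33 at 1.7 mM, and 10.40 and 10.56 at the high doses. The treated arrays thus sat just under healthy and well above the sham array, with fitted differences of -0.74 from healthy (SE 0.11, limma adjusted p = 0.00923) and 2.68 from sham (SE 0.11). Upk3b, a uroplakin also made by mesothelium, read 11.08 in healthy against 9.87 and 10.08 (-1.24, SE 0.18), Upk1b, a tetraspanin uroplakin, 12.31 against 11.28 and 11.49 (-1.07, SE 0.19), and Cldn8, a tight-junction claudin, 10.56 against 9.44 and 9.80 (-1.10, SE 0.23). Grhl3, a transcription factor of surface cell maturation, was lower by the same order (-1.11, SE 0.18). The smallest difference in the list was -0.30, of Sprr1a, which was not called.

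Basal and squamous keratinocyte genes went in both directions. Krt14, the basal keratin of stratified epithelia, read 4.28 in healthy and 9.07 and 8.63 in treated bladder (4.51, SE 0.19, limma adjusted p = 0.00145), below the sham array (9.93). Krt5, its usual partner keratin, read 10.93 in healthy against 10.13 and 10.28 (-0.95, SE 0.25), far above the sham array (8.22). Trp63, the transcription factor of basal cells, read 9.94 against 8.48 and 9.03 (-1.44, SE 0.33). Krt6a, a keratin of wounded epithelium, and Itga6, a hemidesmosome integrin, were higher, by 2.27 (SE 0.38) and 1.24 (SE 0.10). In all 3 of 14 were higher, 5 lower and 6 not called, with a median of -0.34, beside 18.3% of all genes higher and 16.1% lower. Sprr2f, of the near-identical Sprr2 cornified envelope family whose copies this array may not separate, read 3.64 in healthy, 7.89 in sham and 9.10 and 8.59 in treated bladder. Its difference was 4.71 (SE 0.53) from healthy and 1.45 from sham, the second of which did not pass (adjusted p = 0.0798). Sprr2f was below 4.16 in both healthy PBS arrays.

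**Figure D3:**
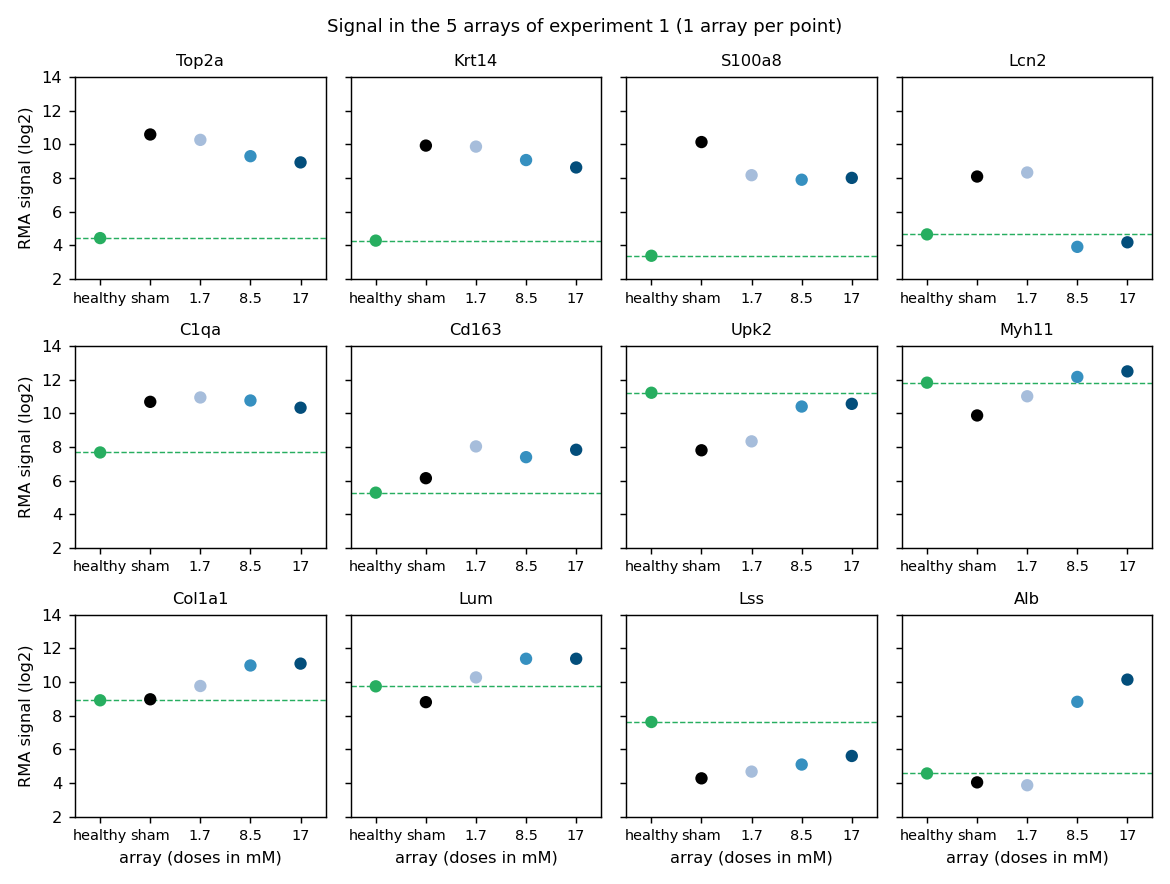
Deposited log2 signal of 12 genes in the 5 arrays of experiment 1, 1 array per point, with the healthy level as a dashed line. Top2a, Krt14, S100a8 and C1qa stay above healthy at 8.5 and 17 mM, Upk2 and Lss stay below, and Col1a1, Lum and Alb are highest at these doses.

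Smooth muscle transcripts lay at or slightly above the healthy level. Myh11, smooth muscle myosin, read 11.82 in healthy, 9.87 in sham and 12.16 and 12.49 in treated bladder. Its fitted difference was 0.46 from healthy (SE 0.15, limma adjusted p = 0.0736, not called, and 0.0476 with all arrays quantile-normalized together) and 2.50 from sham (SE 0.15). Acta2, smooth muscle actin, read 12.46 in healthy against 12.75 and 12.92 (0.27, SE 0.15, adjusted p = 0.225). All 15 contractile genes tested lay above healthy at both doses, and 1 was called, Lmod1, an actin nucleator of muscle (7.38 against 7.87 and 8.15, 0.63, SE 0.14). The list's median of 0.43 became 0.06 without the healthy array of experiment 1. All 15 were higher than in the sham-treated tumour, and in none was the 17 mM array nearer to healthy than the 8.5 mM array. Of 7 striated muscle genes tested, Ckm, muscle creatine kinase, and Acta1, skeletal actin, were higher than healthy by 0.80 (SE 0.21) and 0.60 (SE 0.15), and Myh2, a fast myosin, was lower (-1.25, SE 0.33).

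The stroma went past both healthy bladder and tumour. Col1a1, a chain of type I collagen, read 8.92 in healthy, 8.98 in sham, 9.77 at 1.7 mM, and 10.99 and 11.10 at 8.5 and 17 mM. The treated arrays were therefore about 2 log2 units above both controls. The fitted differences were 2.36 from healthy (SE 0.26, limma adjusted p = 0.00468) and 1.82 from sham (SE 0.26, adjusted p = 0.00515). Col5a2 and Col5a1, chains of the fibril-starting type V collagen, were higher than healthy by 2.28 (SE 0.14) and 1.90 (SE 0.11), and Lox, the collagen cross-linking oxidase, by 2.03 (SE 0.21). Of 21 fibroblast and collagen genes tested, 18 were higher than healthy, none lower, and 20 were higher than sham. Their median difference from the healthy array was 1.38 and 1.35 at the high doses, 0.53 at 1.7 mM and 0.05 in the sham array. Col1a2 and Fbln2 were below the signal filter. In the healthy bladder 7 d after 17 mM, Col1a1 read 10.54 against 7.69 in the healthy array of experiment 2, and its sham array read 8.71.

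Genes of wound matrix were higher as well. Tnc, a matrix glycoprotein of healing tissue, read 7.25 in healthy bladder and 9.11 and 9.37 after treatment (1.80, SE 0.23). Thbs2, a matricellular thrombospondin, read 7.76 against 9.20 and 9.35 (1.32, SE 0.22), and Sfrp2, a secreted Wnt modulator, 6.50 against 8.02 and 7.82 (1.29, SE 0.17). Tgfb1, the growth factor, was higher by 1.34 (SE 0.25) but lower than sham (-1.14, SE 0.25). Of 12 such genes tested, 7 were higher and 1 lower (median 1.04). Of 9 complement genes, 6 were higher and none lower, among them C4b (1.48, SE 0.18), C1ra (1.04, SE 0.10) and C1s1 (0.94, SE 0.10), the classical pathway components, and Cfb, a factor of the alternative pathway (1.52, SE 0.22).

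Vessel genes were moderately higher. Sox17, an endothelial transcription factor, read 4.85 in healthy and 4.78 in sham, and 6.45 and 6.30 in treated bladder (1.52, SE 0.11). Sox18, a related factor, read 5.93 and 6.52, and 7.82 and 7.27 after treatment (1.47, SE 0.25). Both treated arrays were above both controls in each. Cdh5, vascular cadherin, and Pecam1, the junction protein CD31, differed from healthy by 1.15 (SE 0.26) and 1.03 (SE 0.17). From sham Pecam1 differed by 0.57 (SE 0.17, limma adjusted p = 0.0428). Cdh5 differed from sham by only 0.16 (SE 0.26, adjusted p = 0.662), which did not pass. Of 16 endothelial genes tested, 11 were higher than healthy and none lower (median 0.67). Against sham 13 of the 16 were higher and none lower.

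The 44 genes that lay above healthy after treatment but at least 2-fold below it in the untreated tumour of experiment 2 passed the healthy level against the direction of the tumour. Bmp5, a morphogen of mesenchyme, read 5.91 in healthy, 5.03 in sham, 6.04 at 1.7 mM, and 7.89 and 8.37 at the high doses. Its fitted difference from healthy was 2.13 (SE 0.21, limma adjusted p = 0.00388). Tcf21, a transcription factor of visceral fibroblasts, read 8.78 in healthy and 7.64 in sham, and 10.72 and 10.79 after treatment (1.74, SE 0.25). Wnt2, a Wnt ligand of mesenchyme, read 6.98 and 6.03, and 9.05 and 8.84 (1.76, SE 0.23). Asz1, a germ cell protein of the piRNA pathway whose gene lies next to Wnt2 in the RefSeq annotation, read 4.85 and 4.71, and 7.33 and 7.29 (2.19, SE 0.29). Lbp, the lipopolysaccharide-binding protein, differed by 1.69 (SE 0.27), and Abi3bp, a matrix-binding protein, by 1.63 (SE 0.20).

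Across the 44 the median difference from the healthy array was -1.02 in the sham array, -0.04 at 1.7 mM, 1.31 at 8.5 mM and 1.54 at 17 mM. The 17 mM array was nearer to healthy in 11 of them. Other members, picked after their values were seen, were the small proteoglycan Lum (9.75 in healthy against 11.39 at both doses), the chemokine Cxcl12 (9.32 against 10.81 and 10.91), the retinol carrier Rbp4 (6.77 against 8.17 and 8.82) and the fibulins Fbln1 and Fbln5. From the lists, 2 of the 44 were fibroblast and collagen genes, 2 wound matrix genes and 1 a liver gene. In the 7 d array 2 of the 44 were at least 2-fold above the healthy array of experiment 2, beside 101 of all 11969 genes (0.844%). In the 24 h array 17 of the 44 were, but the share over all genes was not counted there and no result is read from it. The class held 26 genes from experiment 1 alone, 25 with the doses as separate groups, 24 with the tumour direction from experiment 1, 9 without the 8.5 mM array, 14 without the 17 mM array and none without the healthy array of experiment 1.

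Counted another way, 120 called genes lay at least 2-fold above both the healthy and the sham array of experiment 1 at both doses, and 8 of the 21 fibroblast and collagen genes were among them. Only Slc39a8, a zinc and manganese transporter named after its values were seen, lay at least 2-fold below both among the called genes. It read 7.54 in healthy, 7.81 in sham and 8.61 at 1.7 mM, and 6.51 and 6.45 at the high doses. Its fitted differences were -1.0 from healthy (SE 0.11, limma adjusted p = 0.00487) and -1.38 from sham (SE 0.11, adjusted p = 0.00123). In the healthy bladder 7 d after 17 mM it read 4.57, against 6.64 in the healthy array of experiment 2.

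**Figure D4:**
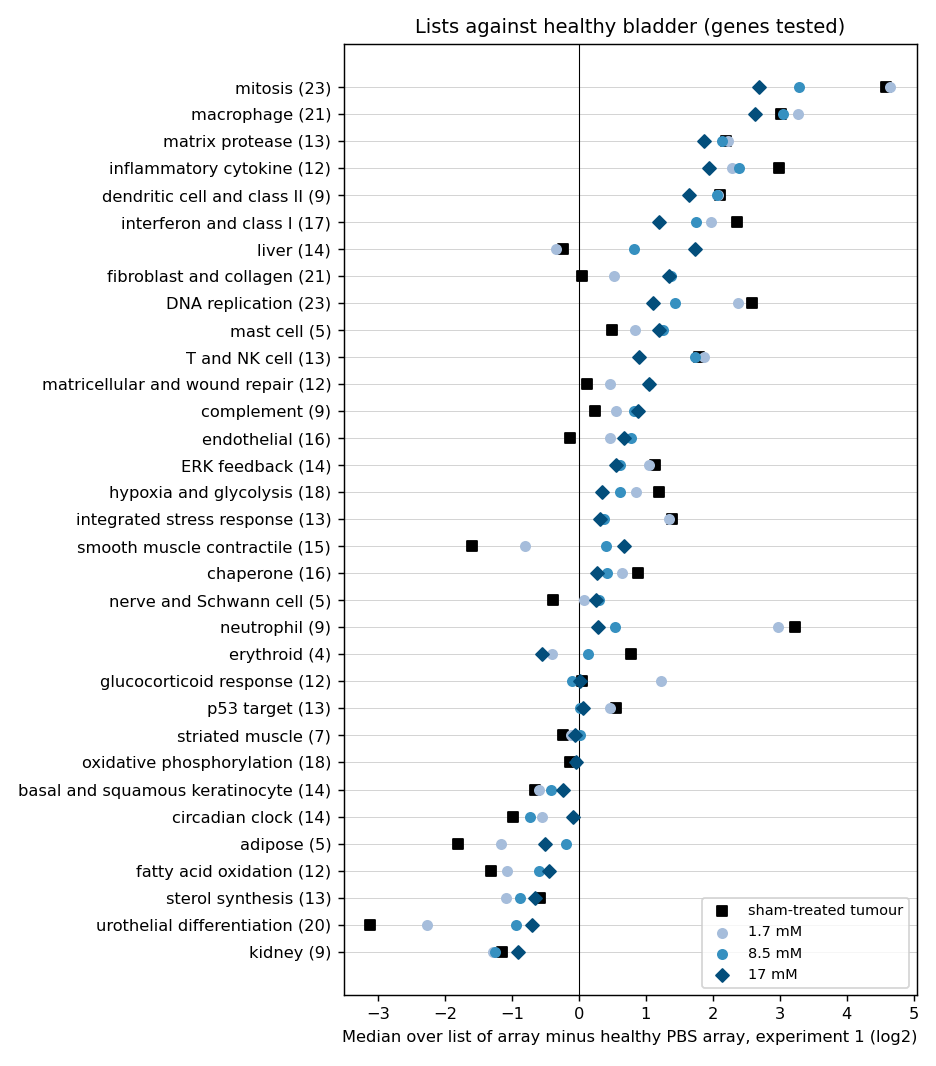
For each gene list (number of genes tested in brackets) the points give the median log2 difference from the healthy PBS array of experiment 1 in the sham-treated tumour and at the 3 doses. Mitosis and macrophage lists stay far to the right of 0 at 8.5 and 17 mM, and the urothelial list moves from the left towards 0. The smooth muscle list crosses from the left to 0.40 and 0.67 at these doses, and the fibroblast list moves from near 0 to 1.38 and 1.35.

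Proteases of matrix turnover stayed high. Mmp13, a collagenase, read 3.77 in healthy, 10.05 in sham and 8.65 and 7.94 in treated bladder (4.45, SE 0.27). Timp1, a protease inhibitor, read 5.28, 10.16, 9.67 and 9.43 in these arrays (3.99, SE 0.30). Mmp9, a gelatinase, and Adam8, a leukocyte sheddase, differed from healthy by 3.90 (SE 0.19) and 3.57 (SE 0.30). Of 13 such genes tested, 11 were higher than healthy and none lower (median 2.14). Mmp13 and Adam8 were below 4.16 in both healthy PBS arrays.

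Signalling and stress lists were displaced to a smaller extent. Their counts stand beside 18.3% of all genes called higher and 16.1% called lower. Hbegf and Ereg, ligands of the EGF receptor family, read 4.99 and 5.27 in healthy bladder, 8.46 and 7.59 at 8.5 mM and 8.02 and 7.24 at 17 mM. They differed by 3.23 (SE 0.18) and 2.18 (SE 0.16). Fosl1, an AP-1 subunit, and Dusp6, the phosphatase that limits ERK, differed by 2.47 (SE 0.15) and 1.74 (SE 0.12). Of 14 ERK feedback genes tested, 8 were higher and none lower (median 0.55). In the integrated stress response list 5 of 13 were higher and 2 lower (median 0.48), and the higher ones included the amino acid transporter Slc7a5 (2.28, SE 0.12) and the serine synthesis enzymes Psat1 (1.83, SE 0.19) and Phgdh (1.56, SE 0.18). Among 16 chaperones 7 were higher and 2 lower, with the endoplasmic reticulum proteins Sdf2l1 (1.30, SE 0.25) and Pdia6 (1.12, SE 0.15) at the top. Of 18 hypoxia and glycolysis genes 9 were higher and none lower (median 0.51), led by Hk2, a hexokinase (1.69, SE 0.20), and Pgk1, phosphoglycerate kinase (1.50, SE 0.16), and 15 of the 18 were lower than sham. Of 13 p53 target genes 4 were higher and 1 lower, with a median of 0.03, and no change of the list is read from these counts. Cdkn1a, the cell cycle inhibitor p21, read 7.94 in healthy bladder against 8.72 and 8.37 (0.61, SE 0.15), and Trp53inp1, an autophagy-linked p53 target, 8.97 against 7.94 and 8.25 (-0.84, SE 0.15).

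Sterol synthesis genes stayed below healthy, and few differed from the tumour. Lss, lanosterol synthase, read 7.63 in healthy, 4.28 in sham, 4.68 at 1.7 mM, and 5.10 and 5.61 at the high doses (-2.14, SE 0.24, limma adjusted p = 0.00536). Fdps, Msmo1 and Idi1, enzymes before and after the sterol ring is closed, differed by -1.01 (SE 0.18), -0.97 (SE 0.12) and -0.96 (SE 0.13). All 13 genes tested lay below healthy at both doses, 11 were called lower (median -0.82), and against sham 1 was higher and 3 lower. Fatty acid oxidation genes were lower too, 7 of 12 and none higher (median -0.54), but 10 of the 12 were higher than sham. Pdk4, a kinase that spares glucose, read 8.46 in healthy, 3.97 in sham, 6.68 and 7.31 after treatment (-1.53, SE 0.25). Ehhadh, a peroxisomal enzyme, and Ppara, the nuclear receptor of fat burning, differed by -1.06 (SE 0.22) and -0.90 (SE 0.20).

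Adipose genes were mixed, with Retn (resistin, -1.13, SE 0.12) and Adipoq (adiponectin, -0.60, SE 0.11) lower and Plin4, a lipid droplet coat protein, higher (0.77, SE 0.12). In the clock list 3 of 14 were higher and 4 lower, beside 18.3% and 16.1% of all genes, and no change of the list is read from these counts. Arntl, the positive clock factor, read 5.04 in healthy against 6.42 and 5.86 (1.07, SE 0.22), and Per3, a repressor, read 6.73 against 5.07 and 5.72 (-1.26, SE 0.26). In both genes the 17 mM array was the nearer to healthy. The time of day of sampling is not in the labels. No oxidative phosphorylation gene of 18 was called (median -0.04, and 0.27 without the block). Of 5 nerve and Schwann cell genes tested, 1 was higher, 2 were lower and 2 were not called (median 0.34). No change of this list is read beside the 18.3% and 16.1% of all genes. Ncam1, a neural adhesion molecule, read 6.20 in healthy bladder against 7.08 and 7.02 (0.91, SE 0.12). Uchl1, a deubiquitinase abundant in neurons, read 11.20 in healthy, 6.48 in sham, 10.11 and 10.37 after treatment (-1.14, SE 0.22).

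The largest decreases were led by transcripts of kidney. Kap, an androgen-regulated protein of proximal tubules, read 9.61 in healthy bladder, 5.97 in sham, 5.79 at 1.7 mM, and 5.96 and 5.84 at the high doses. The 4 tumour arrays of experiment 1 lay close together and far below healthy (-3.61, SE 0.14, limma adjusted p = 0.00139, 12.2-fold lower). Miox, the inositol oxygenase of kidney, read 6.55 in healthy against 3.30 and 3.33 (-3.18, SE 0.11), and Slc27a2, a fatty acid transporter of kidney and liver, 7.68 against 4.58 and 4.72 (-3.03, SE 0.11). Ugt2b35, a glucuronosyltransferase (-2.97, SE 0.21), Aadat, a kynurenine aminotransferase (-2.80, SE 0.19), and Hsd3b4, a steroid dehydrogenase of a family with close copies (-2.78, SE 0.17), were among the 8 largest decreases. So were Gpm6a, a membrane glycoprotein of neurons and mesothelium (-2.87, SE 0.20), and Rspo1, a secreted Wnt agonist (-2.72, SE 0.24). Of 9 kidney genes tested, 8 were lower and none higher, and in 3 of the 8 both dose arrays were below 4.16, so their decrease may be understated. Over all 17 kidney genes on the array the summed linear signal was 1920 and 1480 in the healthy PBS arrays of the 2 experiments. It was 319 and 297 in the sham arrays, 312 at 1.7 mM, 418 at 8.5 mM and 487 at 17 mM. It was 472 in the 7 d array and 627 in the 24 h array. Fbp1, a member of this sum, read 8.56 in healthy and 3.89 in sham of experiment 1. It read 6.97 and 7.65 at the high doses and 7.40 in the 7 d array. Kap and Miox showed no such rise over sham, and of the 9 tested 3 were higher than sham and 1 lower. The larger sums at the high doses are therefore not read as a rise of the kidney genes together. Umod, a defining tubule gene below the filter on mean signal but part of this sum, read 7.10 and 6.42 in the healthy PBS arrays. It read 2.93 and 2.76 at the high doses and 3.88 in the 7 d array. Aqp2, Nphs1 and Calb1 were below the filter, with no healthy signal above 4.63. The 2 healthy PBS arrays thus carried kidney transcripts that the tumour arrays and the 7 d array carried little of, and the part of this in the decreases was not tested.

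Liver transcripts went the other way. Alb, serum albumin, read 4.57 in healthy, 4.04 in sham and 3.87 at 1.7 mM, but 8.83 at 8.5 mM and 10.15 at 17 mM. Of the 5 arrays of experiment 1, only the 2 high-dose arrays were well above the others. Its fitted difference was 5.03 from healthy (SE 0.48, limma adjusted p = 0.00367) and 5.33 from sham (SE 0.48). Its healthy and sham signals lay near or below the filter's 4.16, so these differences may be understated. Serpina1c, of the near-identical alpha-1-antitrypsin genes, read 3.99 in healthy against 6.73 and 8.11 (3.41, SE 0.49). Cyp3a11, a liver cytochrome P450 below 4.16 in both healthy PBS arrays, read 3.39 against 5.49 and 6.74 (2.67, SE 0.45). Apoa2, a lipoprotein of plasma, read 4.98 against 6.74 and 7.89 (2.32, SE 0.41). In each of the 4 the 17 mM array was higher than the 8.5 mM array by more than 1 log2 unit. Of 14 liver genes tested, 7 were higher, 2 lower and 5 not called, with a median of 1.26. Ttr and Trf, the 2 lower ones, had high signal in healthy bladder (8.91 and 11.07). Over all 19 liver genes on the array, Ttr and Trf included, the summed linear signal was 3420 and 2770 in the healthy PBS arrays. It was 1330 and 929 in the sham arrays, 3210 at 8.5 mM and 4930 at 17 mM. Serpina1a, Apoc3, Fga, Fabp1 and Fgb were below the filter but are part of this sum. They read 2.78 to 3.66 in healthy bladder, 3.62 to 5.27 at 8.5 mM and 4.51 to 7.14 at 17 mM. The array labelled healthy, 17 mM, 24 h also carried Alb, at 8.80 against 3.85 in its healthy control. The part of liver tissue in these values was not tested.

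**Figure D5:**
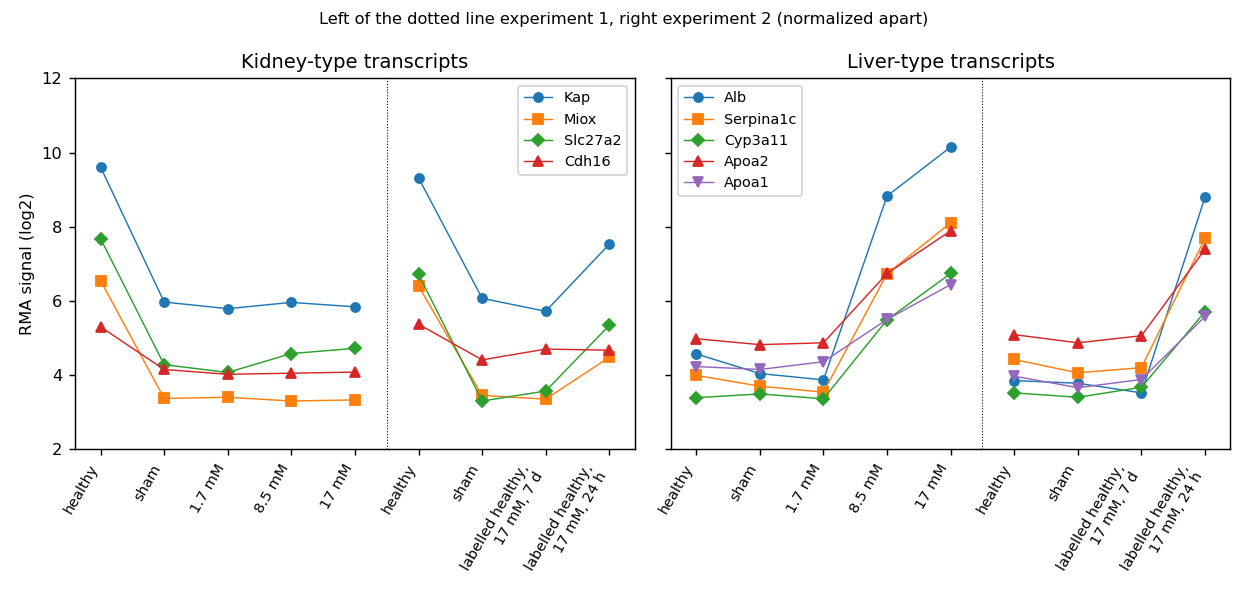
Deposited log2 signal of kidney-type (left) and liver-type (right) transcripts in all 9 arrays, experiment 1 left and experiment 2 right of the dotted line; lines join the points of a gene within an experiment. Kap, Miox and Slc27a2 are high in the 2 healthy PBS arrays, and Alb, Serpina1c, Cyp3a11 and the apolipoproteins are high at 8.5 mM, at 17 mM and in the array labelled healthy, 17 mM, 24 h.

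The Alb window is shown because Alb had the largest difference of the liver genes. It spans chr5:90460620-90460869 on GRCm38.p6, plus strand, and GTTAAT, the shared part of sites of the liver factor HNF1, is in capitals.
Alb: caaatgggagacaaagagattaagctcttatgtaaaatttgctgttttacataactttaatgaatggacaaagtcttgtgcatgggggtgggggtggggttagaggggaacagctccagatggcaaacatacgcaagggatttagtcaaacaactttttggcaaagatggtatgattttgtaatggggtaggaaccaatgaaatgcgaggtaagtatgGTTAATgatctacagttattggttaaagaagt
These letters, on either strand, were found in 6 of 15 liver genes with a promoter in the table (40.0%) and in 6.43% of all promoters.

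The largest fitted increase was in AA467197, a small protein related to a subunit of the respiratory chain. It read 3.22 in healthy, 10.22 in sham, 9.04 at 8.5 mM and 8.06 at 17 mM (5.14, SE 0.40, limma adjusted p = 0.00252). Its healthy signals were both below 4.16, which leaves its true rank unknown. Bcl2a1a, an anti-apoptotic protein of leukocytes with close paralogues that its probes may not separate, read 4.02, 9.70, 9.27 and 8.57 in these arrays (4.85, SE 0.27). It too was below 4.16 in both healthy PBS arrays. Xist, the RNA of the inactive X chromosome that male MB49 cells are not known to make, read 10.32 in healthy, 9.15 in sham, and 9.95 and 10.21 at the high doses. Its fitted difference was -0.26 from healthy (SE 0.13, adjusted p = 0.188, not called) and 0.95 from sham (SE 0.13, adjusted p = 0.00498).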

How the data were processed

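The authors deposited log2 RMA signals of the Affymetrix mouse PM array, and Transcriptome Analysis Console 4.0.1.36 is named in the submitters' processing notes; the build behind the array values is not given in the sources used here. Members, lists and tests were chosen with earlier results of these data known. Of 45077 probe sets, 28898 named 1 gene, 551 several, 15588 none and 40 were controls. The probe set with the highest mean stood for a gene, and the fit took 11969 of 17097 genes, those outside the lowest 30% by mean signal (cut at 4.16 log2). Sorted values differed by 0.022 log2 within and 0.329 between the 2 experiments, so these were taken to have been normalized apart. Same-numbered deviations from group means correlated at 0.647, so the labels' experiment number is a block. limma 3.58.1 (R 4.3.3), tested on simulated data, fitted 7 arrays with Benjamini-Hochberg adjustment over all genes (3.15 prior degrees of freedom), and groups of 1 array were assumed to vary like the others. Named were the 8 largest increases and decreases of at least 2-fold, the 6 largest differences opposite to the tumour, up to 4 called members per list and 13 genes throughout; others named were picked after their values were seen. Promoters are RefSeq's, on GRCm38.p6.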

Additional observations from a re-analysis of the deposited data

Results flagged for a closer look

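The array labelled healthy, 17 mM, 24 h is in no fit or test above. Over the 896 genes 2-fold higher in treated bladder, its median difference from the healthy PBS array of experiment 2 was 1.15 on the log2 scale, and 894 of them were higher in it. Over the 270 genes 2-fold lower the median was -0.74, and all 270 were lower. The shares of all genes higher and lower in this array were not counted, so no result is read from these counts. Its Alb signal exceeded that of the healthy array by 4.95. In the healthy bladder 7 d after 17 mM, Kap differed by -3.60 from the healthy array. Each of these values comes from 1 array against 1 array and was not tested.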

How the results depend on the processing

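Without the block for the experiment number, which pairs the arrays, 981 genes were higher and 98 lower than healthy, 1071 of these being calls of the blocked fit, and 1728 differed from sham in place of 5140. Experiment 1 alone gave 521 higher, 155 lower, 2560 different from sham, 443 displaced as in the tumour and 26 the opposite way. With the doses as separate groups 1300 were higher, 843 lower and 25 opposite. A 2-fold requirement left 896 higher, 270 lower and 1855 different from sham. With the tumour direction from experiment 1 the opposite class held 24 genes. A threshold of 0.58 log2 gave 2041 genes displaced as in the tumour and 134 opposite, and one of 2 log2 gave 240 and 0. Leaving out an array in turn gave 0 to 879 genes higher, 0 to 472 lower, 0 to 951 displaced as in the tumour, 0 to 26 opposite and 0 to 3147 different from sham; the 0 against sham came without the sham array of experiment 1 (3753 at an unadjusted p under 0.05 by limma). Joint quantile normalization, the filters, the mean of probe sets and the variance trend kept these counts within 1.5 times. Of 1895 values of the 137 named genes under the alternatives, 1273 kept direction and call, 618 lost the call, 2 gained it and 2 changed sign. The sign changed for Xist with the mean of probe sets (0.02) and for Acta2 without the healthy array of experiment 1 (-0.04); leaving out arrays, Acta2 ranged from -0.04 to 0.38. Apart from fewer arrays or genes, the cause of these shifts was not tested. With 2 dose arrays and 1 healthy array side by side, small differences cannot be resolved, and signals near the filter's 4.16 log2 have little room to fall.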
